A study of Mus musculus with 20 samples.

Results

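The bile acid genes of the liver of mice with an *IMP2-2* transgene (tg) and of wildtype mice (wt) were read as 10 genes, chosen by their role: *Cyp7a1*, *Cyp8b1*, *Cyp27a1*, *Cyp7b1*, *Nr1h4*, *Nr0b2*, *Slc10a1*, *Slco1b2*, *Abcb11* and *Abcc2*. Every probe set annotated to one of them alone was taken, which gave 19 of the 45101 probe sets on the array, for 10 of 18194 genes. Livers came from 10 tg and 10 wt mice of the mixed strain C57Bl6J/DBA2, all 5 weeks old and untreated. The tg mice carry IMP2-2, also called p62, a splice variant of the insulin-like growth factor 2 mRNA binding protein IGF2BP2, as a liver-specific transgene, and the wt mice do not. The promoter of the transgene and the sex of the mice are not given in the sources used here, and *Igf2bp2* has no probe set of its own here, so the transgene itself could not be read.

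Hepatocytes make bile acids from cholesterol by 2 routes. The classic route starts with CYP7A1 and the alternative route with CYP27A1 and CYP7B1, while CYP8B1 directs the products toward cholic acid. Bile acids activate the nuclear receptor FXR (*Nr1h4*), which induces the repressor SHP (*Nr0b2*) and, through it and through signals from the intestine, lowers *Cyp7a1*. NTCP (*Slc10a1*) and OATP1B2 (*Slco1b2*) take bile acids and other organic anions up from the portal blood, and BSEP (*Abcb11*) and MRP2 (*Abcc2*) pump them and their conjugates into the bile canaliculus.

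All values are log2 signals after robust multi-array average (RMA) normalization, so that 1 unit is a 2-fold difference, and a value belongs to a probe set, not to the amount of RNA of 1 gene against another. Arrays are called by genotype and label number, as in tg_1371_2. The names carry a number that livers of both genotypes share, and livers with the same number are called a set here. Set A holds tg_1371_2 and wt_1371_4, set B tg_1386_9 and wt_1386_4, and set C tg_1407_3, tg_1407_9, wt_1407_2 and wt_1407_5. Set D holds tg_1420_4, tg_1420_12, tg_1420_14, wt_1420_1, wt_1420_6 and wt_1420_7, set E tg_1423_2-8_1, tg_1423_2-8_4, wt_1423_2-8_3 and wt_1423_2-8_9, and set F tg_14231_6 and wt_14231_2. In wt livers, wt_1407_2 was almost a copy of wt_1420_6, and wt_1407_5 of wt_1420_7: the log2 difference of the arrays had an SD of 0.168 and 0.172, against 0.228 to 0.401 between other wt arrays. tg_1386_9 and wt_1386_4, of different genotype, were closer still (0.155). Means ± SD of wt livers count each wt pair once (n = 8), while limma, an empirical Bayes linear model, kept all 20 arrays, so that its difference need not equal that of the printed means. Whether the arrays of a pair came from separate mice is not known, and p-values measure the spread between these arrays. 8 of the 10 hepatocyte markers have a probe set of their own, all 8 were above the median signal of 4.53, and their mean spanned 13.52 to 13.67 in tg and 13.48 to 13.64 in wt livers. *Eif2s3y*, a gene of the Y chromosome, was at 8.92 or above on all 20 arrays, while *Xist*, which is transcribed from the inactive X chromosome, was between 3.51 and 4.74. This is the pattern of male livers on every array, although the labels give no sex.

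The sequence just before the start of transcription is shown for a member that varied widely between livers, *Cyp8b1*, and for one that varied less, *Abcb11*. Both runs hold 250 bases from RefSeq on GRCm38.p6, 5′ to 3′ in the direction of the gene. The *Cyp8b1* run lies at chr9:121916306-121916555 on the minus strand, and the *Abcb11* run at chr2:69342617-69342866 on the minus strand. Capitals mark the HNF4 element in *Cyp8b1* and an AGGTCA motif of nuclear receptors, read on the opposite strand, in *Abcb11*.
Cyp8b1: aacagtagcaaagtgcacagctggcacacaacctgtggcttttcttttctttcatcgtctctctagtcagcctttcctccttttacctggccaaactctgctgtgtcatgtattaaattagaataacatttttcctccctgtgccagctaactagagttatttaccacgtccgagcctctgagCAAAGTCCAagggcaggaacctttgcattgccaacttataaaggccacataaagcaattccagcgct
Abcb11: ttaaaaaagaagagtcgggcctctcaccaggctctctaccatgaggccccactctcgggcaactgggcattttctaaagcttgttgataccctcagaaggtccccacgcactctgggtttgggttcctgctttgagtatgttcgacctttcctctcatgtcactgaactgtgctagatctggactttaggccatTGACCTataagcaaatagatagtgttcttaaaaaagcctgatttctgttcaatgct

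HNF4 is a nuclear receptor that drives many hepatocyte genes. The letters searched for were CAAAGTCCA for the HNF4 element and AGGTCA for the other motif, on both strands. The HNF4 letters begin 67 bases before the start of *Cyp8b1* and stand in 0.384% of 32851 promoter windows of the same length, and of the 8 members with a window only *Cyp8b1* held them. AGGTCA begins 56 bases before the start of *Abcb11*, and 14% of windows hold it. *Slco1b2*, *Nr1h4*, *Slc10a1* and *Abcc2* also hold AGGTCA. No window was given for *Cyp7a1* and *Cyp7b1*. A match of letters is a description of the sequence only.

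None of the 10 bile acid genes was called between genotypes after adjustment for multiple tests. 0 of 19 probe sets passed an adjusted p of 0.05 in limma with Benjamini-Hochberg adjustment over all probe sets, where 2.55% of all 45101 did. At an unadjusted p under 0.05, 1 probe set was higher and 3 were lower in tg livers, and 20.4% of all probe sets were past that point (9.61% higher and 10.8% lower). A Wilcoxon rank sum test gave 0 probe sets after adjustment and 3 before it. With the near-identical wt arrays averaged, limma again called 0 of 19, against 0.612% of all probe sets. 15 of the 19 probe sets, among them the brightest of every gene, lay above the median signal, and the brightest probe set stands for its gene from here on. 9 of the 10 differences were below 0 and 1 was above, with a median of −0.14, while 60.0% of all probe sets were below 0, with a median of −0.03. In whole liver, fewer hepatocytes and less RNA per hepatocyte cannot be told apart.

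**Figure D1:**
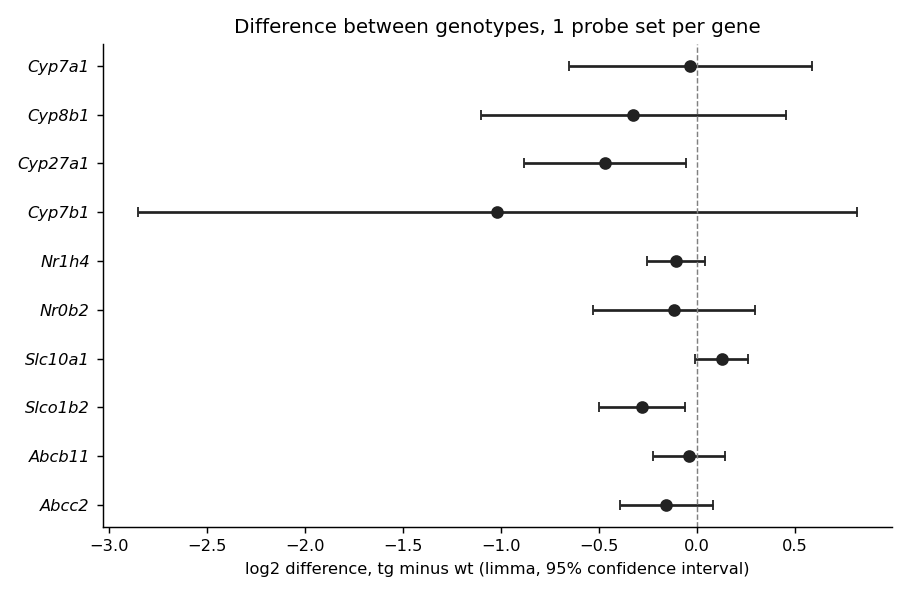
Log2 difference between tg and wt livers (x axis, tg minus wt) of the 10 bile acid genes (y axis), 1 probe set each, with the 95% confidence interval from limma over 10 tg and 10 wt arrays. The intervals of *Cyp27a1* and *Slco1b2* lie below 0 before adjustment for multiple tests, and that of *Cyp7b1* is the widest, from −2.85 to 0.81.

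The synthesis enzymes and *Nr0b2* varied widely from liver to liver. Within genotypes the SD was 2.23 for *Cyp7b1*, 0.959 for *Cyp8b1*, 0.738 for *Cyp7a1*, 0.510 for *Cyp27a1* and 0.486 for *Nr0b2*. Of the 22550 probe sets above the median signal, 99.9%, 99.1%, 98.1%, 95.1% and 94.4% had a smaller SD than these, in the same order. Receptor and transporters varied less: the SD was 0.274 for *Abcc2*, 0.254 for *Slco1b2*, 0.212 for *Abcb11*, 0.163 for *Nr1h4* and 0.150 for *Slc10a1*, and between 33.6% and 77.6% of probe sets had a smaller one.

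**Figure D2:**
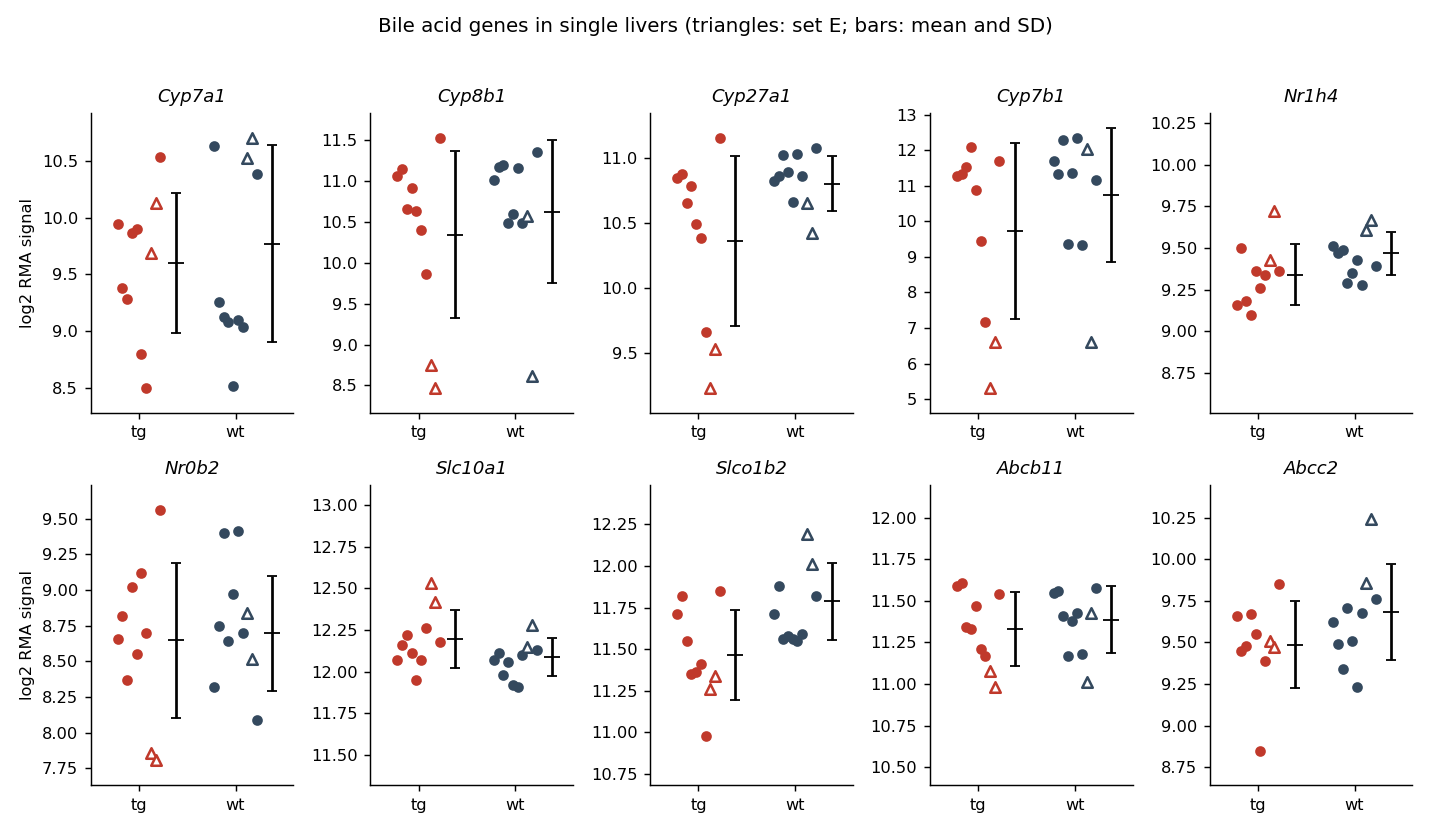
Log2 RMA signal (y axis) of each of the 10 genes in single livers, tg left and wt right of each panel, with the mean and SD beside the points (n = 10 tg arrays and 8 wt profiles). Triangles mark the 4 livers of set E, in which *Cyp7b1* spanned 5.32 to 12.04.

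*Cyp7a1*, the rate-limiting enzyme of the classic route, had a lowest, median and highest signal of 8.50, 9.77 and 10.53 in tg livers, against 8.52, 9.19 and 10.70 in wt livers. With each near-identical wt pair counted once the wt median was 9.82, with 5 of 10 tg livers above it, and the groups overlapped over nearly their whole range. tg livers averaged 9.60 ± 0.62 and wt livers 9.77 ± 0.87 (SD, n = 10 and 8). limma gave a difference of −0.03 (95% interval −0.65 to 0.58, SE 0.297, adjusted p = 0.964), and an exact permutation test of the means gave p = 0.629. In linear terms the interval reached from 0.637-fold to 1.5-fold. The second probe set of the gene followed the first over the arrays (r = 0.859, 20 arrays) and differed by −0.10 (adjusted p = 0.861 in limma). Among wt livers, high and low *Cyp7a1* went with the set. The 4 wt livers of sets A, E and F had 10.63, 10.52, 10.70 and 10.38, whereas the 6 others lay between 8.52 and 9.26. Those 6 include both near-identical pairs, which link sets C and D. Sets A, B and F hold a single wt liver each. tg livers were less ordered: set F was highest (10.53) and 2 livers of set D lowest (8.50 and 8.80), but the third liver of set D (9.90) was above tg_1423_2-8_1 of set E (9.69).

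*Cyp8b1*, the sterol hydroxylase that leads to cholic acid, spanned 8.47 to 11.53 in tg livers with a median of 10.65, and 8.62 to 11.36 in wt livers with a median of 10.81. 3 livers stood below all others, tg_1423_2-8_4 at 8.47, wt_1423_2-8_9 at 8.62 and tg_1423_2-8_1 at 8.75, followed by tg_1420_4 at 9.87 and then by values of 10.40 and above. The genotype means were 10.34 ± 1.02 in tg and 10.63 ± 0.87 in wt livers (SD, n = 10 and 8). The difference was −0.32 (SE 0.374, 95% interval −1.10 to 0.45, adjusted p = 0.660 in limma), with an exact permutation p of 0.547.

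*Cyp7b1*, the oxysterol hydroxylase of the alternative route, had the broadest range of all members, 7.02 log2 units or 130-fold. In tg livers it was at 11.26, 11.32, 11.53, 12.10, 10.87, 9.46, 7.18, 5.32, 6.60 and 11.69. In wt livers it was at 11.68, 11.32, 12.28, 9.37, 11.36, 12.34, 9.33, 12.04, 6.62 and 11.16. The 4 lowest livers were 3 tg and 1 wt, and the 2 genotypes covered much the same range. The means were 9.73 ± 2.47 in tg and 10.73 ± 1.88 in wt livers (SD, n = 10 and 8), and limma gave a difference of −1.02 (SE 0.882, 95% interval −2.85 to 0.81, adjusted p = 0.541). The exact permutation p was 0.361. A second probe set ran in parallel (r = 0.998, 20 arrays) with a difference of −1.02, and the third was dim, with means of 2.68 in tg and 2.72 in wt livers.

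*Cyp27a1*, the mitochondrial hydroxylase of the sterol side chain, spanned 9.23 to 11.15 in tg livers with a median of 10.57, and 10.42 to 11.07 in wt livers with a median of 10.86. tg_1423_2-8_1, tg_1423_2-8_4 and tg_1420_4 were at 9.23, 9.53 and 9.66, below every wt liver, and the 7 other tg livers lay at 10.38 to 11.15, close to or within the wt range. The tg mean was 10.36 ± 0.65 and the wt mean 10.80 ± 0.21 (SD, n = 10 and 8). The difference of −0.47 (SE 0.199, 95% interval −0.88 to −0.06) had an unadjusted p of 0.0276 and an adjusted p of 0.185 in limma, and the exact permutation p was 0.0947. Without those 3 tg arrays, the lowest in this gene, it was −0.09 (adjusted p = 0.794 in limma), and their choice alone fixes the direction of that shift. With the signal of *Dbp* as a covariate the difference was −0.58 (SE 0.150, adjusted p = 0.0218 in limma). This was the only call of a member under any alternative, and that fit called 8.86% of all probe sets. The other probe set was dim, at 2.20 in tg and 2.30 in wt livers, with a difference of −0.12 (adjusted p = 0.194).

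*Cyp7b1* and *Cyp8b1* were lowest in the same 4 livers, and *Cyp27a1* in 3 of them, and so had genes that male mouse livers express more than female ones, as they do *Cyp7b1*. *Cyp27a1* in wt_1423_2-8_9, at 10.42, was the lowest of the wt livers but above 4 tg livers. The mean of 6 such male-biased genes, *Slco1a1* left out, was 6.92 in tg_1423_2-8_1, 7.46 in tg_1423_2-8_4, 9.44 in tg_1420_4 and 6.88 in wt_1423_2-8_9, and between 10.25 and 11.33 in the 16 other livers. *Elovl3*, a fatty acid elongase, was at 3.78, 4.19, 8.83 and 3.59 in those 4 livers, and *Hsd3b5*, a steroid dehydrogenase of male liver, at 3.43, 4.04, 8.54 and 5.04, while wt_1407_5 and wt_1420_7 were also low in *Hsd3b5* (8.36 and 8.42). *Slco1a1*, an organic anion transporter of the hepatocyte that is both on this list and on that of transport genes, was at 5.30, 5.51, 8.38 and 7.20 there and at 10.54 or above elsewhere. With *Slco1a1*, 7 male-biased genes were measured, all above the median signal, 0 of 7 were called between genotypes, and their median difference was −0.47. *Cyp7a1* was at 9.69, 10.13, 8.50 and 10.70 in the same 4 livers, which spans its whole range. In limma with the mean of the male-biased genes as a covariate, an alternative chosen after seeing the data, the differences were −0.39 for *Cyp7b1*, −0.05 for *Cyp8b1* and −0.35 for *Cyp27a1*, with adjusted p of 0.535, 0.851 and 0.110. Whether the state that these genes mark has a part in the values was not tested.

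**Figure D3:**
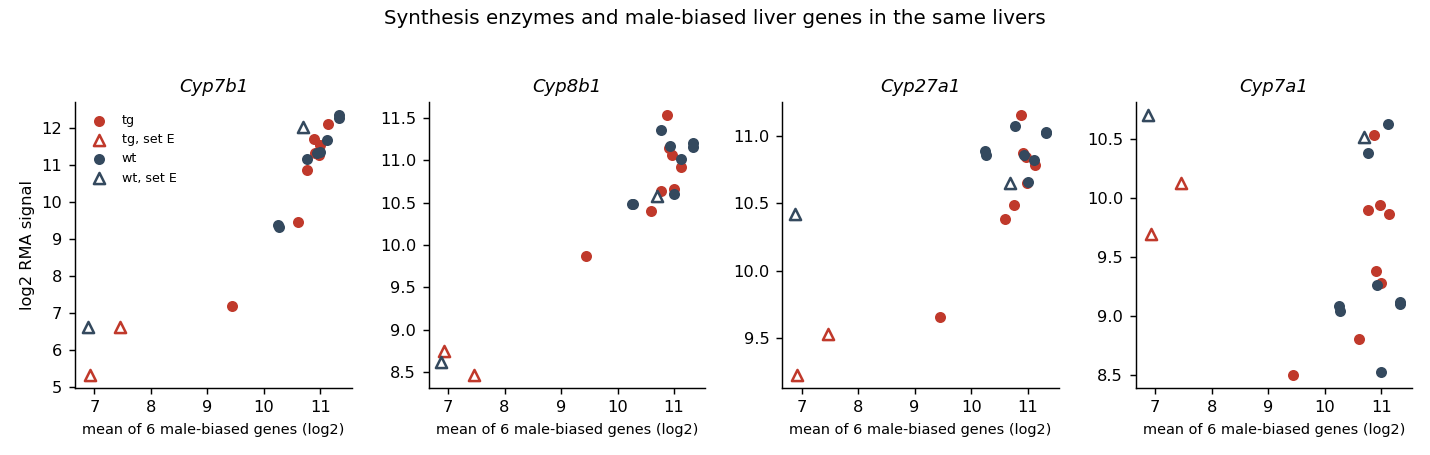
Log2 RMA signal of 4 synthesis enzymes (y axis) against the mean log2 signal of 6 male-biased genes (x axis) in 20 single livers, tg in red and wt in dark blue, with triangles for set E. *Cyp7b1* and *Cyp8b1* were lowest in the 4 livers where that mean was below 10, *Cyp27a1* was lowest in the 3 tg livers of these but at 10.42 in the wt liver, and *Cyp7a1* spanned 8.50 to 10.70 there.

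Neither the receptor nor its target was called between genotypes. *Nr1h4*, which encodes FXR, was at 9.10, 9.35 and 9.72 (lowest, median and highest) in tg livers, against 9.28, 9.45 and 9.67 in wt livers. 8 of 10 tg livers were below the wt median, and the ranges overlapped. The means were 9.34 ± 0.18 in tg and 9.47 ± 0.13 in wt livers (SD, n = 10 and 8), with a difference of −0.11 (SE 0.0703, 95% interval −0.25 to 0.04, adjusted p = 0.403 in limma, exact permutation p = 0.120). *Nr0b2*, which encodes the repressor SHP, was at 7.81, 8.68 and 9.56 in tg livers, against 8.09, 8.72 and 9.41 in wt livers. Both its lowest values, 7.81 and 7.86, were of the 2 tg livers of set E, and its highest was that of tg_14231_6. It differed by −0.12 (SE 0.20, 95% interval −0.53 to 0.30, adjusted p = 0.780 in limma, exact permutation p = 0.834), with means of 8.65 ± 0.54 in tg and 8.70 ± 0.40 in wt livers (SD, n = 10 and 8).

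Of the 2 uptake carriers, *Slco1b2* had the smallest p of all members. Its signal was at 10.98, 11.38 and 11.85 (lowest, median and highest) in tg livers, against 11.55, 11.65 and 12.19 in wt livers. 6 tg livers, at 10.98 to 11.41, were below every wt liver, and the 4 others lay inside the wt range. The mean was 11.46 ± 0.27 in tg and 11.79 ± 0.23 in wt livers (SD, n = 10 and 8). limma gave a difference of −0.28 (SE 0.105, 95% interval −0.50 to −0.06), 0.823-fold in linear terms, with an unadjusted p of 0.0139 and an adjusted p of 0.136. The exact permutation p was 0.0158, the only one of the 10 members under 0.05, and it is not adjusted. The other 4 probe sets of the gene differed by −0.07 to −0.34, and their r with the first over 20 arrays ran from −0.01 to 0.44. Without the 4 livers of set E, of which the 2 wt livers were the highest of all (12.01 and 12.19), the difference was −0.15 (adjusted p = 0.558 in limma).

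*Slc10a1*, the sodium-dependent bile acid uptake carrier, was the only member with a positive difference. It was at 11.95, 12.17 and 12.53 (lowest, median and highest) in tg livers, against 11.91, 12.08 and 12.28 in wt livers. The 2 highest values, 12.42 and 12.53, were of the tg livers of set E, and the remaining tg livers lay within the wt range. The means were 12.20 ± 0.17 in tg and 12.09 ± 0.11 in wt livers (SD, n = 10 and 8), and the difference was 0.13 (SE 0.0651, 95% interval −0.01 to 0.26, adjusted p = 0.283 in limma, exact permutation p = 0.141). The second probe set gave 0.12 (SE 0.0507, unadjusted p = 0.0274, adjusted p = 0.185), with means of 11.66 ± 0.13 in tg and 11.54 ± 0.08 in wt livers (SD, n = 10 and 8). With tg_1420_4 and both tg livers of set E left out, the difference of the first was 0.04 (adjusted p = 0.852 in limma). These were the tg livers with the highest values, so leaving them out must lower the difference.

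The canalicular pumps were not called between genotypes either. *Abcb11*, the bile salt export pump, was at 10.98, 11.33 and 11.61 (lowest, median and highest) in tg livers, against 11.01, 11.42 and 11.58 in wt livers. These ranges were almost the same. It had means of 11.33 ± 0.22 in tg and 11.39 ± 0.20 in wt livers (SD, n = 10 and 8) and a difference of −0.04 (SE 0.0883, 95% interval −0.22 to 0.14, adjusted p = 0.841 in limma, exact permutation p = 0.575). *Abcc2*, which exports conjugated organic anions, was at 8.85, 9.49 and 9.85 in tg livers, against 9.23, 9.65 and 10.24 in wt livers. 1 tg liver, tg_1420_14, was below all others, and the 2 wt livers of set E, at 9.86 and 10.24, were above all others. The difference was −0.16 (SE 0.115, 95% interval −0.39 to 0.08, adjusted p = 0.465 in limma, exact permutation p = 0.163), from means of 9.49 ± 0.26 in tg and 9.68 ± 0.29 in wt livers (SD, n = 10 and 8).

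Each of the 6 sets holds both genotypes, but they are not 6 separate comparisons. Sets C and D share near-identical wt arrays, and the tg and wt array of set B are near-identical too. The counts of sets and the fit with a block kept all these arrays. Within the sets *Slc10a1* was higher in tg livers in 5, by up to 0.26, and *Nr1h4* was lower in 5, by up to 0.35. *Cyp7a1* was higher in tg in 4 of 6 sets (−0.70 to 0.47), *Cyp27a1*, *Nr0b2*, *Abcb11* and *Abcc2* in 3, and *Cyp8b1*, *Cyp7b1* and *Slco1b2* in 2. The *Cyp27a1* difference was −1.16 within set E and −0.67 within set D, and between −0.24 and 0.08 within the others. The *Slco1b2* difference was likewise lowest within set E (−0.80) and set D (−0.32), and between −0.12 and 0.03 within the rest. *Cyp7b1* ran from −3.37 within set E to 0.99 within set C. *Nr0b2* ran from −0.85 within set E to 1.47 within set F, which holds a single liver of each genotype. With the label number as a block in limma, the lowest adjusted p of the members were 0.0559 for *Cyp27a1* and 0.0666 for *Slco1b2*, and 0 of 19 probe sets passed, where 4.97% of all did.

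**Figure D4:**
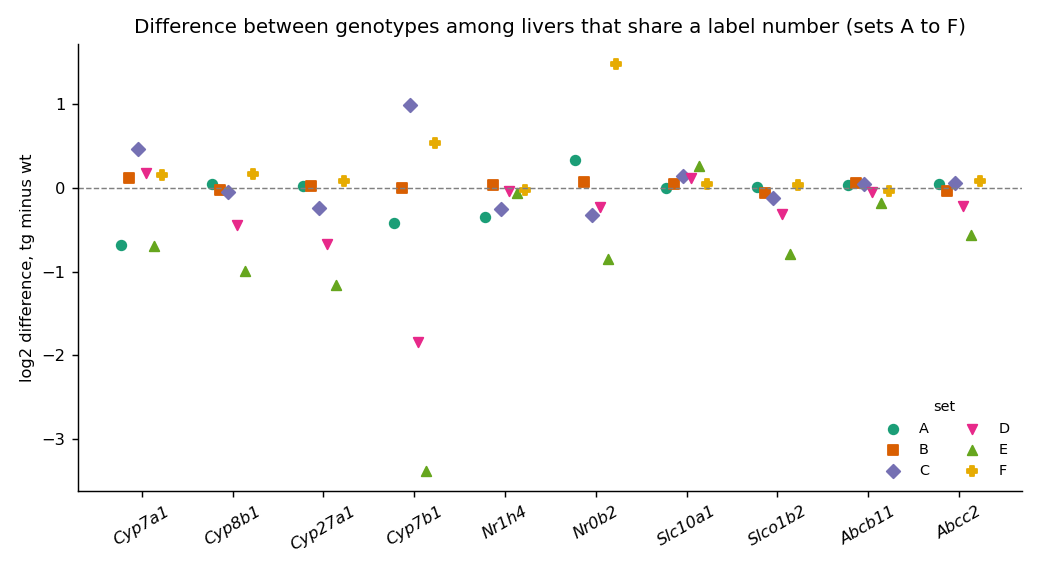
Log2 difference between the mean of tg and the mean of wt livers that share a label number (y axis, tg minus wt) for each of the 10 genes (x axis), 1 mark per set, A to F. The marks of set E are the lowest for *Cyp7a1*, *Cyp8b1*, *Cyp27a1*, *Cyp7b1*, *Nr0b2*, *Slco1b2*, *Abcb11* and *Abcc2*, and the highest for *Slc10a1*.

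The 4 livers of set E also stood apart in clock genes, whose transcripts cycle over the day. *Dbp*, a transcription factor of the clock output, was at 9.36 and 10.05 in the 2 tg livers and at 11.07 and 10.98 in the 2 wt livers, while in the other livers it was at 4.73 to 5.86 in tg and at 5.13 to 6.06 in wt. *Arntl*, the core clock gene that encodes BMAL1, was at 5.62 and 5.2 in the 2 tg livers and at 4.61 and 3.87 in the 2 wt livers, and at 7.53 to 8.09 in all others. *Cyp7a1* in these livers was at 9.69 and 10.13 in tg and at 10.52 and 10.70 in wt, and wt_1371_4 (10.63) and tg_14231_6 (10.53) of other sets had values as high. 0 of 12 clock genes were called between genotypes in the main fit, where 2.55% of all probe sets were. The values of set E widen the spread in that fit. With the label number as a block, of the 12 only *Dbp* passed, lower in tg livers (adjusted p = 0.0208 in limma), where 4.97% of all probe sets were called. The part of the clock in the values was not tested.

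Over 18 profiles (10 tg arrays and 8 wt profiles, genotype means removed), *Cyp7a1* went with *Abcc2*. Pearson's r was 0.711 (permutation p = 0.000630, adjusted p = 0.0126 over 20 relations) and Spearman's rho was 0.732 (permutation p = 0.00102, adjusted p = 0.0204). Without the 2 profiles farthest in *Cyp7a1*, tg_1420_4 and wt_1420_1, r was 0.762. With the means of the sets removed too, r was 0.445, a value given without a test. The permutations treat all profiles as exchangeable, so a relation within sets was not tested. *Cyp7a1* with *Slco1b2* did not pass (r = 0.586, adjusted permutation p = 0.115, and rho = 0.618, adjusted permutation p = 0.0746), nor did *Cyp7a1* with the repressor *Nr0b2* (r = −0.270, adjusted permutation p = 0.563) or with its receptor *Nr1h4* (r = 0.401, adjusted permutation p = 0.460). 0 of the 10 relations of a member with *Xist* passed. The genes whose signal was most like that of *Cyp7a1* over the 20 arrays, genotype means removed, were *Ap4b1* (r = 0.918), *N4bp2l1* (r = 0.857) and *Ttc39b* (r = 0.844). For *Slco1b2* they were *Gpcpd1* (r = 0.903), *Angptl4* (r = 0.898) and *Osbpl1a* (r = 0.894). These r are descriptions over arrays that share a set and, for the wt pairs, may share RNA.

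The other genes of the pathway were described from lists of synthesis, transport and regulator genes, 48 of which were read from a probe set of their own. 0 of 48 were called in limma in either direction, where 2.55% of all probe sets were. At an unadjusted p under 0.05, 3 were higher and 10 lower, against 9.61% and 10.8% of all probe sets. The median difference was −0.06, against −0.03 over all probe sets. The tg and wt ranges of all 48 overlapped, but the share of all probe sets with such an overlap was not counted.

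Synthesis and conjugation genes were mostly a little below 0. Of 15 measured, 2 differences were positive and 13 negative, with a median of −0.11, where 60.0% of all probe sets were below 0. At an unadjusted p under 0.05, 5 were lower, against 10.8% of all probe sets. *Hsd17b4*, the peroxisomal enzyme of side chain shortening, was at 10.58 ± 0.34 in tg and 10.89 ± 0.04 in wt livers (SD, n = 10 and 8), a difference of −0.30 (adjusted p = 0.104 in limma). *Slc27a2*, a very long chain acyl-CoA synthetase, was at 12.44 ± 0.22 in tg and 12.76 ± 0.20 in wt livers (SD, n = 10 and 8), a difference of −0.30 (adjusted p = 0.0783 in limma). The 2 highest were the steroid 5β-reductase *Akr1d1* at 0.10 and *Hsd3b7* at 0.08. With tg_1420_4 and both tg livers of set E left out, *Hsd17b4* differed by −0.10 (adjusted p = 0.443 in limma) and *Akr1d1* by −0.05.

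The transport genes of this list ran the other way, with 10 positive and 5 negative differences of 15 and a median of 0.12. Of all probe sets, 60.0% were below 0. The transporters among the members are not on this list: *Slc10a1* differed by 0.13, but *Slco1b2* by −0.28, *Abcc2* by −0.16 and *Abcb11* by −0.04. *Abcb1a*, a drug efflux pump, differed by 0.75 (adjusted p = 0.307 in limma) and *Abcc4*, a basolateral exporter of bile acids, by 0.60 (adjusted p = 0.255). *Abcc4* was at 6.99 and 6.73 in the 2 tg livers of set E and at 5.00 or below in all others. The lowest were *Slco1a1* at −0.97 (adjusted p = 0.475) and the uptake carrier *Slco2b1* at −0.23 (adjusted p = 0.248). With tg_1420_4 and both tg livers of set E left out, the differences were 0.06 for *Abcb1a*, 0.10 for *Abcc4*, 0.34 for *Slco1a1*, −0.13 for *Slco2b1* and 0.28 for *Slc51b*. These arrays hold the highest tg values of *Slc51b* (6.69, 6.99 and 6.63) and the lowest of *Slco1a1* (8.38, 5.30 and 5.51). wt_1423_2-8_9, at 7.20 in *Slco1a1*, was kept. The direction of the shift in these 2 genes thus follows from the choice of arrays. *Slc51b*, the β subunit of the basolateral organic solute transporter and a target of FXR, was at 6.10 ± 0.52 in tg and 5.55 ± 0.22 in wt livers (SD, n = 10 and 8), a difference of 0.56 (SE 0.166, adjusted p = 0.0677 in limma). *Ephx1*, microsomal epoxide hydrolase, was at 10.72 ± 0.19 in tg and 10.48 ± 0.17 in wt livers (SD, n = 10 and 8), a difference of 0.27 (SE 0.0780, adjusted p = 0.0625 in limma). Both passed with the label number as a block (adjusted p = 0.0349 for *Slc51b* and 0.0397 for *Ephx1* in limma), and neither passed with the near-identical wt arrays averaged (0.135 and 0.151).

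Regulators had 7 positive and 11 negative differences of 18 measured, with a median of −0.06, where 60.0% of all probe sets were below 0. The highest were the hepatocyte transcription factor *Onecut1* at 0.32 (adjusted p = 0.594 in limma) and *Nr1i2*, the xenobiotic receptor PXR, at 0.26 (adjusted p = 0.437). The lowest were *Dbp* at −0.68 (adjusted p = 0.690) and *Nr1i3*, the xenobiotic receptor CAR, at −0.47 (adjusted p = 0.465). Without the same 3 tg livers *Nr1i2* was at 0.06, *Dbp* at −1.68 and *Nr1i3* at 0.04. This setting drops the highest tg values of *Dbp*, 9.36 and 10.05, but keeps the wt livers of set E at 11.07 and 10.98. The lower *Dbp* difference thus follows from the choice of arrays. With the label number as a block *Dbp* passed as lower in tg livers (adjusted p = 0.0208 in limma).

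**Figure D5:**
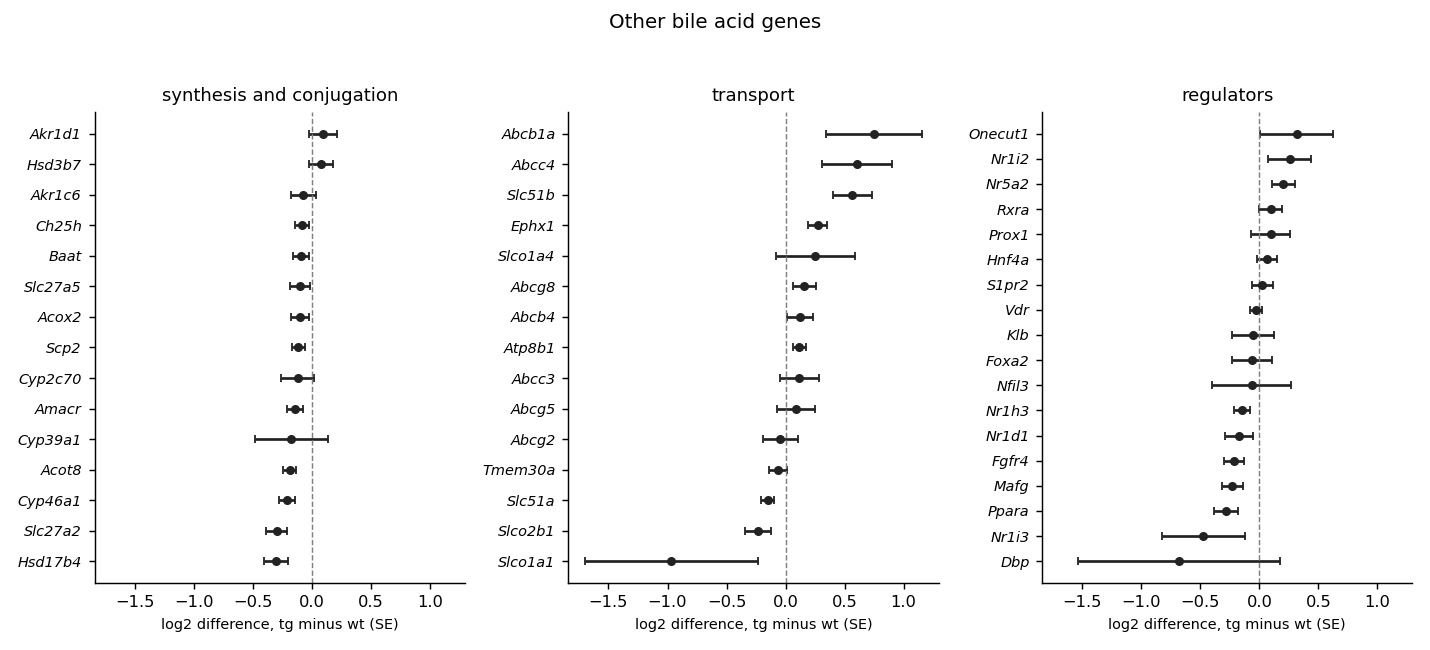
Log2 difference between tg and wt livers (x axis, tg minus wt, with the standard error from limma) of 48 other bile acid genes (y axis), by role. None passed the adjusted threshold, and the points run from −0.97 (*Slco1a1*) to 0.75 (*Abcb1a*).

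Markers of other liver cells moved with genotype in part. 6 of 8 Kupffer cell markers were called higher in tg livers, with a median difference of 0.55, and their mean spanned 7.77 to 8.60 in tg and 7.44 to 8.12 in wt livers. 1 of 10 cholangiocyte markers (*Tm4sf4*) and 1 of 6 endothelial markers (*Lyve1*) were called higher. 0 of 8 hepatocyte, 0 of 6 stellate and 0 of 4 ileal markers were called. In this main fit 2.55% of all probe sets were called in either direction. With the near-identical wt arrays averaged, 4 of 8 Kupffer cell markers and *Lyve1* passed and *Tm4sf4* did not (adjusted p = 0.120 in limma). That fit called 0.612% of all probe sets. Without set E, and likewise without tg_1420_4 and both tg livers of set E, none of these markers passed (0 of 8, with median Kupffer cell differences of 0.46 and 0.50), where 0.164% and 0.368% of all probe sets were called. The ileal markers, which include *Fgf15*, the intestinal hormone that represses *Cyp7a1*, were all below the median signal. The part of the Kupffer cell markers in the values of the bile acid genes was not tested.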

How the data were processed

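Liver RNA of 10 tg and 10 wt mice was labelled and hybridized to Affymetrix Mouse Genome arrays, 1 per liver. The authors scanned and RMA-normalized the arrays, and these deposited log2 values were the starting point. The RMA version was not given in the sources used here. Of 45101 probe sets, 34958 carry 1 symbol in the platform annotation, 932 several and 9211 none, and only the first kind was named. A gene with several probe sets is given by its brightest one on average.

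limma 3.58.1 in R 4.3.3 fitted genotype to all 20 arrays, with Benjamini-Hochberg adjustment over all probe sets and 0.05 as the threshold. An exact two-sided permutation test ran through 43758 splits of 10 tg arrays and 8 wt profiles, and correlations used 100000 permutations. Other steps used Python 3.11.15 (numpy 2.4.6, pandas 2.3.3, scipy 1.17.1). The functions were tested on simulated data. The members and gene lists were chosen with earlier results of these data known. Of the lists, the 2 largest differences in each direction among genes above the median signal are named, and *Slc51b* and *Ephx1* were added after their values were seen. For *Cyp7a1* and the member with the smallest p, the 3 most similar genes by Pearson correlation are named.

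Arrays that share a label number across genotypes deviated together (correlation 0.184 to 0.404, highest for the own number in 5 of 6). The numbers were therefore used as a block in alternative fits, although what they stand for was not given in the sources used here. The main limma fit and the permutation tests did not use them, so their p-values ignore this pairing. As a random block the consensus correlation was 0.0820. The number of arrays limits the precision. Alternatives were the block, covariates, other normalization, filters and probe set choices, and arrays left out singly or in groups.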

Additional observations from a re-analysis of the deposited data

Results flagged for a closer look

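2 values lay far from the rest of their group, and the causes were not tested. *Cyp8b1* in wt_1423_2-8_9 was 8.62, with the next of the 8 wt profiles at 10.49, a gap of 0.681 of the range of the group. *Abcc2* in tg_1420_14 was 8.85, with the next of the 10 tg arrays at 9.39, a gap of 0.543 of the range. 20 groups were tested, and chance alone marks about 1 in 20.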

How the results depend on the processing

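No member probe set was called under the alternatives run, with the exception of *Cyp27a1*, 1 probe set lower in tg livers with *Dbp* as a covariate. Of the other bile acid genes, where 0 were called, the number higher in tg livers was 6 with *Dbp* as a covariate (among them *Slc51b*, *Abcc4*, *Abcb1a* and *Nr1i2*), 2 with the label number as a block or as a random block (*Slc51b* and *Ephx1* both times), 2 among probe sets above the median signal, 2 without tg_1386_9 and wt_1386_4, and 1 each with centred arrays, with male-biased genes as a covariate (chosen after seeing the data) and with the mean of all probe sets of a gene. The number lower in tg livers was 3 with *Dbp* as a covariate, 2 with the mean of all probe sets and without tg_1386_9 and wt_1386_4, and 1 each with the label number as a block (*Dbp*), male-biased genes as a covariate (*Cyp46a1*), probe sets above the median signal and renewed quantile normalization (both *Acot8*). Of all probe sets, 8.86% were called with *Dbp* as a covariate, 4.97% with the block and 3.97% with the random block. The share was 6.88% above the median signal, 3.75% without tg_1386_9 and wt_1386_4, and 2.49% with centred arrays. It was 3.17% with male-biased genes as a covariate and 2.57% with renewed quantile normalization. With the mean of all probe sets it was 4.61% of genes. Leaving out 1 array at a time gave 0 to 2 in each direction: *Slc51b* higher and *Acot8* and *Slc27a2* lower without tg_1386_9, *Slc51b* and *Ephx1* higher and *Acot8* lower without tg_14231_6, and *Ephx1* higher without tg_1407_3, tg_1420_14 or wt_1386_4. Those fits called 5.45% of all probe sets without tg_1386_9 and 4.76% without tg_14231_6. The share was 1.32% without tg_1407_3, 2.30% without tg_1420_14 and 1.92% without wt_1386_4. The replicate block changed no other call of a bile acid gene.

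The difference of *Cyp7a1*, at −0.03, turned to 0.063 with *Dbp* as a covariate, 0.10 with array weights, 0.13 without set E, 0.037 without tg_1420_4, tg_1423_2-8_1 and tg_1423_2-8_4, 0.58 as a difference of medians over all arrays (−0.045 with each near-identical wt pair counted once), and ran from −0.16 to 0.090 with 1 array left out. Without the same 3 tg arrays *Cyp8b1* was 0.24, *Cyp7b1* 0.43, *Nr0b2* 0.11 and *Abcb11* 0.071. This setting, also used for other genes above, left out tg arrays only, among them those with the lowest tg values of these genes. It kept wt_1423_2-8_9, at 6.62 in *Cyp7b1* and 8.62 in *Cyp8b1*. A rise of these differences thus follows from the choice of arrays. *Nr0b2* was 0.066 without set E, and *Abcb11* ran from −0.079 to 0.00024 with 1 array left out. The causes were not tested beyond these settings.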
